A study of Mus musculus with 4 samples.

Results

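The immediate early and AP-1 genes described here are 10 genes, Fos, Fosb, Jun, Junb, Jund, Egr1, Ier2, Dusp1, Atf3 and Zfp36, taken by symbol from the gene rows of the count matrices, which hold 32285 genes in all; each symbol had 1 row. The study used droplet single-cell RNA sequencing with barcoded surface antibodies (CITE-seq) on mouse marrow, sorted for CD45.2 and Kit at 10 weeks from the transplant. The groups are control cells and cells with the alleles labelled Mll3SI, Mll4SI and both together (Mll3/4SI), with 1 library each, and the labels do not spell out SI. MLL3 and MLL4 are the histone methyltransferases encoded by Kmt2c and Kmt2d, and the series title asks what they do in blood stem cell and myeloid identity apart from their enzymatic activity. CD45.2 is an allele of the leukocyte antigen that marks donor cells in many transplantation designs, and Kit is the receptor by which stem and progenitor cells of the marrow are commonly sorted. The labels give no sex, donor number, recipient number or driver of the alleles.

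Immediate early genes are switched on within minutes of a stimulus, without new protein synthesis, by transcription factors already present in the cell. Fos and Fosb pair with Jun, Junb or Jund through leucine zippers to form the transcription factor AP-1, while Jun proteins can also pair with one another and with Atf3. Egr1 is a zinc finger transcription factor of the same early response, Ier2 is an early response nuclear protein, and Dusp1 and Zfp36 act in feedback, Dusp1 by dephosphorylating MAP kinases and Zfp36 by speeding the decay of messenger RNAs. In blood stem cells Egr1 is known for its link to quiescence and to retention in the niche. Cell sorting and tissue dissociation are known to raise several of these genes.

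The promoters of Fos, Fosb and Jun are shown because these 3 genes kept the highest ratios of the Mll3/4SI library to control in the results that follow. Each line holds the 250 bases before the start that the RefSeq table of GRCm38.p6 gives, 5′ to 3′ on the gene's strand. Fos lies at chr12:85473640-85473889 on the plus strand, Fosb at chr7:19310046-19310295 on the minus strand and Jun at chr4:95052223-95052472 on the minus strand. The genes themselves span chr12:85473890-85477273 (Fos), chr7:19302696-19310051 (Fosb) and chr4:95049034-95052222 (Jun) in the GRCm38 annotation, so the annotated Fosb gene reaches a few bases into its window. Capitals mark a match to the serum response element (CArG box), to TGACNTCA or to TGANTCA, each searched on both strands.
Fos: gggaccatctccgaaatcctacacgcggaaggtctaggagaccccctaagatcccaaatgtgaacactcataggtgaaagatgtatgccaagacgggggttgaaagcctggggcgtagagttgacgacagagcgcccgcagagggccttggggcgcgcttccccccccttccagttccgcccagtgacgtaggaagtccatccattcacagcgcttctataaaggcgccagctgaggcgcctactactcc
Fosb: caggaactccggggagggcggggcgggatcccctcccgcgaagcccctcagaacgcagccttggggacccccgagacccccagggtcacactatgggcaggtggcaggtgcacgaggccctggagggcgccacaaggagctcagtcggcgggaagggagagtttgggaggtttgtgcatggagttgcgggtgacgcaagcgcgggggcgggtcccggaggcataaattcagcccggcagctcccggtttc
Jun: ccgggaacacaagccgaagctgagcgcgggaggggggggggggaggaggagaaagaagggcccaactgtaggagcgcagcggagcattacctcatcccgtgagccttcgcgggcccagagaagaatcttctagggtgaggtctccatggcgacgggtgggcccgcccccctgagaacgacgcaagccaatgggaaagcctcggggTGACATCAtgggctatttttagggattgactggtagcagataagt
Jun held a TGACNTCA match with the letters TGACATCA at positions -45 to -38, counted from the base before the start, and neither Fos nor Fosb held any of the 3 motifs in this window. Of the 8 members with a promoter in the table, Dusp1 held TGACGTCA at -143 to -136 and Zfp36 a CArG box, CCATAAAAGG, at -58 to -49. Among 27025 promoters of the same length, 7.59% held TGACNTCA, 6.87% held TGANTCA and 1.40% held a CArG box. A TATAAA stood at -33 to -28 in Fos and in 13% of all promoters. GGGCGG occurred at 1 place in Fos, at 3 in Fosb and at 1 in Jun, and 32.9% of all promoters held it. A match describes letters in the window and is neither a binding site nor a cause of the levels measured.

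Each library gave between 140546094 and 177753607 gene UMIs (unique molecular identifiers, that is, counted RNA molecules), and 31707 cells were kept, from 6743 to 10186 per library, with medians of 12800 to 19185 UMIs per cell. RNA of the genes of both sorting markers was present in every library. Ptprc, which encodes CD45, lay between 179 and 312 CPM (UMIs per 1000000) and Kit between 100 and 112 CPM. These levels do not check the sort, because no unsorted cells were measured and summed Ptprc does not give the CD45 allele. Kmt2c and Kmt2d had transcripts in all 4 libraries, at 110 to 147 CPM and at 33.3 to 41.3 CPM, so a 3′ tag does not check these alleles. Sex-linked transcripts differed between libraries, with Xist at 0.0315 and 0.194 CPM in control and Mll3SI against 1148 and 1360 CPM in Mll4SI and Mll3/4SI, so that sex and the Mll4SI allele cannot be told apart. Of 25 clusters, built from genes other than the members, 7 drew over 80% of their cells from 1 library, and libraries shared between 13 and 25 cell barcodes. Every group is 1 library, so no test of a condition is possible, and "higher" and "lower" compare libraries. Ratios below carry exact binomial and CPM levels exact Poisson intervals (95%), which cover counting error only. A ratio is called past 1.5-fold on log2 of CPM plus 1, for genes with a mean of at least 1 CPM over the 4 libraries.

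Over all kept cells, the Mll3/4SI library had more Fos, Fosb, Jun, Jund and Egr1 RNA than control, the Mll3SI library had more Fosb, and the Mll4SI library had less Jund. All 3 comparisons share the same control library. Where 4 values are listed here and later, their order is control, Mll3SI, Mll4SI, Mll3/4SI. The members together made up 196, 229, 196 and 270 CPM. Atf3 was under the filter, so 9 of 10 members could be called: 5 of them were higher in Mll3/4SI, beside 3.54% of all 12300 genes, and 0 lower, beside 3.19%. In Mll3SI 1 was higher, beside 0.732% of all genes, and 0 lower, beside 1.37%. In Mll4SI 0 were higher, beside 2.98%, and 1 lower, beside 5.6%. The 9 members had median log2 ratios of 0.22 (Mll3SI), -0.36 (Mll4SI) and 0.67 (Mll3/4SI), and all genes tested had -0.02, -0.13 and -0.05. Under median-of-ratios scaling the median of all genes in Mll4SI was 0.01, its 366 higher and 689 lower genes became 553 and 406, and Zfp36 joined the members called higher there. In cells tagged Hashtag1, 1 of the 9 members (Fosb) was higher in Mll3/4SI, and the share of all genes was not counted for these cells.

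Among the Fos family genes, Fos stood at 4.26, 6.51, 4.52 and 12.5 CPM, and the last was 2.93-fold (2.66 to 3.23) the control. Fosb stood at 1.14, 2.38, 1.44 and 6.81 CPM, a ratio of 2.08-fold (1.70 to 2.56) in Mll3SI and 5.96-fold (5.0 to 7.15) in Mll3/4SI. For both genes Mll3/4SI was the highest library and control the lowest. Among the Jun family, Jun stood at 14.3, 15.2, 11 and 46.7 CPM, 3.26-fold (3.10 to 3.44) the control in Mll3/4SI. Jund stood at 33.4, 39.1, 19.5 and 53.8 CPM, and so was 0.585-fold (0.558 to 0.614) the control in Mll4SI and 1.61-fold (1.55 to 1.67) in Mll3/4SI. Junb stayed between 17.1 and 26.3 CPM in the 4 libraries, with its highest level in Mll3SI. Egr1 stood at 1.57, 1.32, 0.926 and 4.85 CPM, with only Mll3/4SI above control. The genes of feedback and decay were close to control in Mll3/4SI: Dusp1 was at 3.29 CPM in control and 4.00 CPM there, and Zfp36 at 22.7 and 20.9 CPM. Ier2 ranged from 93.1 to 112 CPM over the libraries. Atf3, the stress-induced partner of Jun, gave 7, 10, 7 and 41 UMIs.

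Marker genes put the cells into classes named after their leading markers, and the members differed between classes in each library. Cells named HSC/MPP-like, after stem and multipotent progenitor markers such as Mecom, Hlf, Meis1 and Cd34, numbered 707, 705, 582 and 930. Of the 930 Mll3/4SI cells, 674 were in cluster 16, which also held markers of other cell types, as given below. Granulocyte-like cells, with Mpo, Elane and later granule genes, were the largest class, at 4197, 5141, 7842 and 4988 cells. Ier2 had its highest level in granulocyte-like cells in all 4 libraries, at 116, 135, 124 and 107 CPM, and the interval was apart from that of the next class in control, Mll3SI and Mll4SI. Jund was lowest in granulocyte-like cells in all 4 libraries, at 15.5, 22.0, 13.8 and 24.6 CPM, and was highest in T/NK-like cells in control, Mll4SI and Mll3/4SI, at 493, 473 and 477 CPM from 26, 22 and 47 cells. Egr1 was highest in erythroid-like cells in control, Mll3SI and Mll4SI, at 12.3, 12.1 and 13.4 CPM, though these intervals overlapped those of the next class. In Mll3/4SI erythroid-like cells Egr1 was also at 12.3 CPM, while 25 dendritic-like cells held the highest level, 92.0 CPM. Zfp36 was at 0.828, 4.05 and 3.13 CPM in the basophil/mast-like cells of control, Mll3SI and Mll4SI, its lowest class in these libraries. Jun was lowest in granulocyte-like cells in the same 3 libraries. In Mll3/4SI its highest levels were 145 CPM in basophil/mast-like and 138 CPM in HSC/MPP-like cells, with overlapping intervals. Atf3 passed 1 CPM in dendritic-like cells, at 3.89, 3.58, 3.62 and 4.38 CPM, and in T/NK-like cells of Mll3/4SI. The T/NK-like value rests on 2 UMIs, and each dendritic-like value on no more than that.

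**Figure D1:**
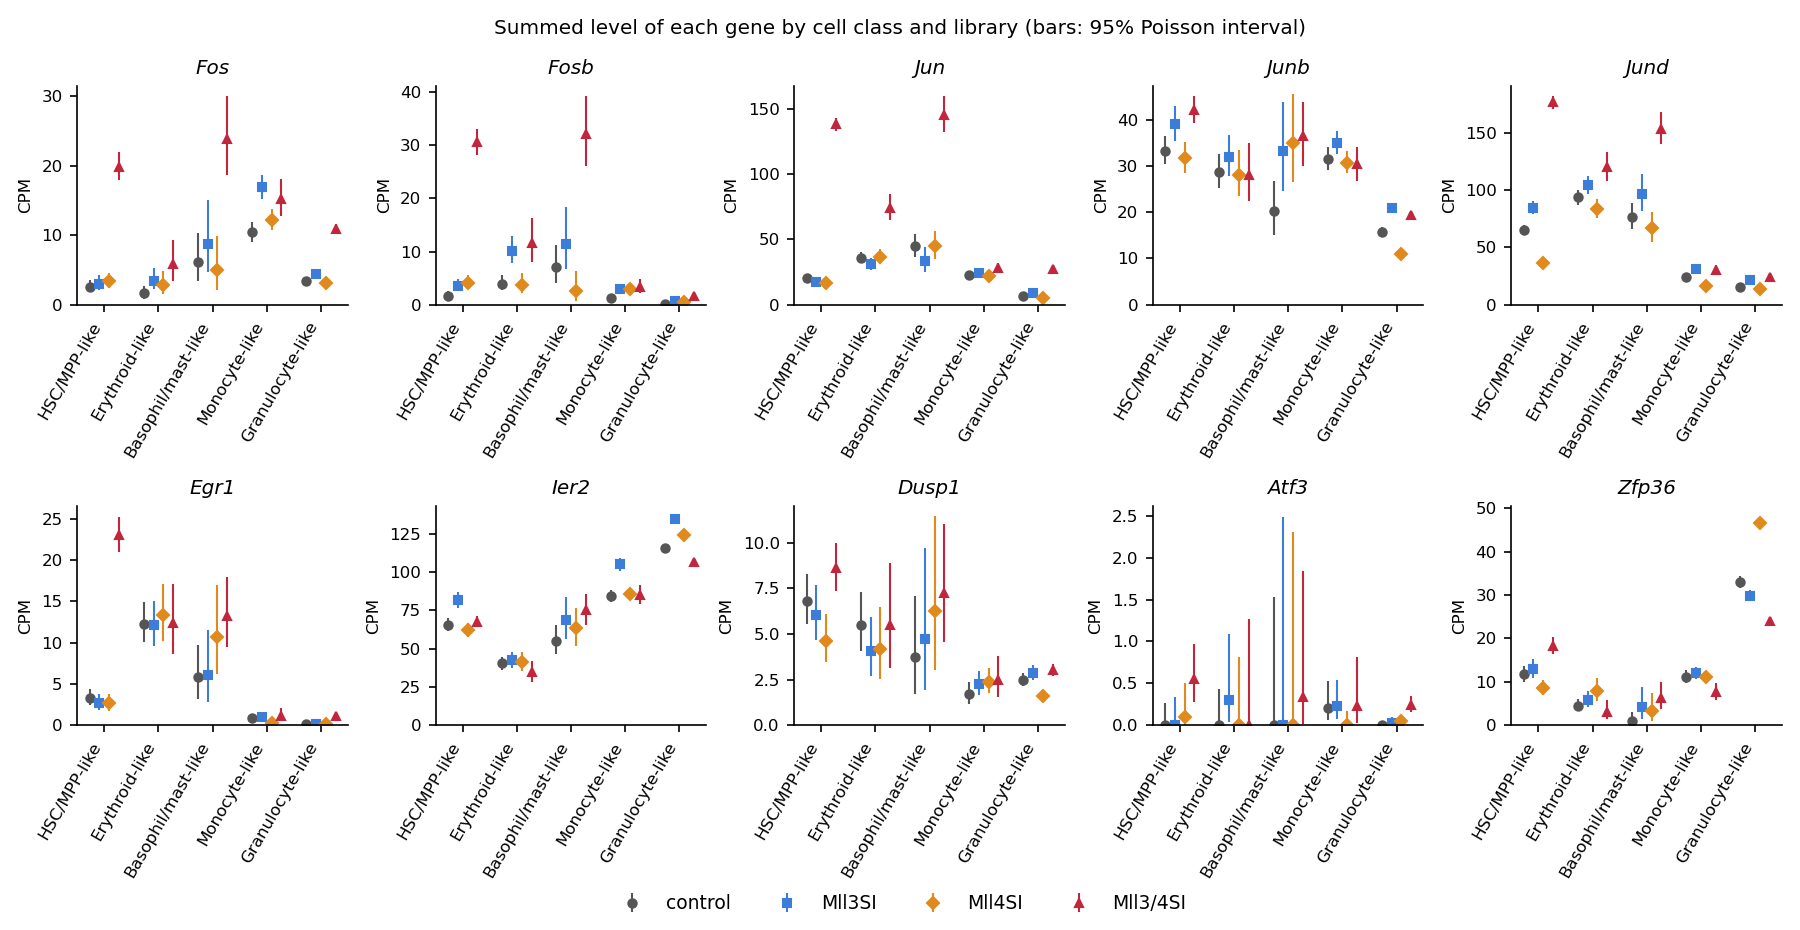
CPM of each of the 10 members (1 panel per gene, vertical axis) in 5 cell classes (horizontal axis) and 4 libraries (colours), with exact 95% Poisson intervals as bars that cover counting error only. Fos, Fosb, Jun, Jund and Egr1 reach their highest HSC/MPP-like level in Mll3/4SI, while Ier2 is highest in granulocyte-like cells of every library.

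In HSC/MPP-like cells the Mll3/4SI library held several times the control level of Fosb, Fos, Egr1 and Jun, and a smaller excess of Jund and Zfp36. Of the 9 members that passed the filter, 6 were higher, beside 7.37% of 12776 genes, and 0 lower, beside 9.08%; the median log2 ratio was 1.43 for the members and -0.06 for all genes. In this class different clusters held most cells of the groups: control cells were all in clusters 6 and 15, whereas 72.5% of the Mll3/4SI cells were in cluster 16, which drew 674 of its 676 cells from that library. The top genes of cluster 16 included Angpt1, Meis1, Cpa3, Fcer1a and Pf4, so that stem cell markers stood beside mast cell and megakaryocyte markers. Each ratio is therefore given over the whole class and again over the shared clusters 6 and 15 alone, a comparison chosen after the data were seen, which leaves 256 Mll3/4SI cells.

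Fosb was at 1.69, 3.57, 4.17 and 30.6 CPM in HSC/MPP-like cells. The Mll3/4SI library stood far above the other 3, with 617 UMIs against 24 in control, a ratio of 18.1-fold (12.1 to 28.5). Without cluster 16 its level was 7.13 CPM, 4.23-fold (2.49 to 7.34) the control. Fos was at 2.53, 3.02, 3.35 and 19.9 CPM, a Mll3/4SI ratio of 7.86-fold (5.58 to 11.4). Its first 3 libraries lay close together, and the shared-cluster level of Mll3/4SI was 6.95 CPM, 2.75-fold (1.70 to 4.45). Cluster 16 itself held Fosb at 39.6 CPM and Fos at 24.8 CPM.

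Jun was at 20.6, 17.5, 16.3 and 138 CPM, from 293 UMIs in control and 2787 in Mll3/4SI, a ratio of 6.71-fold (5.95 to 7.60). Without cluster 16 it was 39.0 CPM, 1.90-fold (1.59 to 2.27) the control, while cluster 16 stood at 176 CPM (169 to 183). Jun thus stayed past 1.5-fold without cluster 16, at a much smaller ratio. Jund, often the AP-1 subunit of resting cells, was at 64.8, 84.6, 36.5 and 176 CPM, 2.72-fold (2.53 to 2.93) in Mll3/4SI and 1.31-fold (1.17 to 1.46) over the shared clusters. It was therefore called over the whole class and not over the shared clusters. At a coarser clustering (Leiden resolution 0.5) Fos, Fosb and Jun were likewise the 3 members called. The share of all genes called at that resolution was not counted. There the cluster with 1850 of 1865 cells from Mll3/4SI held 5 basophil/mast and 4 HSC/MPP markers, was left unnamed and so was outside the class. Junb was at 33.3, 39.0, 31.6 and 42.1 CPM, within 1.5-fold of control in each comparison.

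Egr1 was at 3.30, 2.65, 2.63 and 23.1 CPM, and the Mll3/4SI ratio was 7.0-fold (5.18 to 9.66). In clusters 6 and 15 alone Egr1 was at 3.39 CPM, 1.03-fold (0.569 to 1.78) the control, so that its excess in this class was in cluster 16, which held 30.7 CPM. Zfp36 was at 11.7, 12.8, 8.52 and 18.3 CPM, 1.57-fold (1.30 to 1.90) in Mll3/4SI and 1.02-fold (0.760 to 1.37) over the shared clusters. Dusp1 was at 6.81, 6.04, 4.62 and 8.62 CPM and Ier2 at 65.4, 81.6, 62.2 and 67.4 CPM, both within 1.5-fold of control in all 3 comparisons. Atf3 gave 0, 0, 1 and 11 UMIs, and in control a count of 3 UMIs would be 0.211 CPM. In the 2 shared clusters 3 of 9 members were higher (Fos, Fosb and Jun), beside 3.38% of 12704 genes, and 0 lower, beside 3.6%, and the members' median log2 ratio was 0.08 beside -0.06 for all genes.

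**Figure D2:**
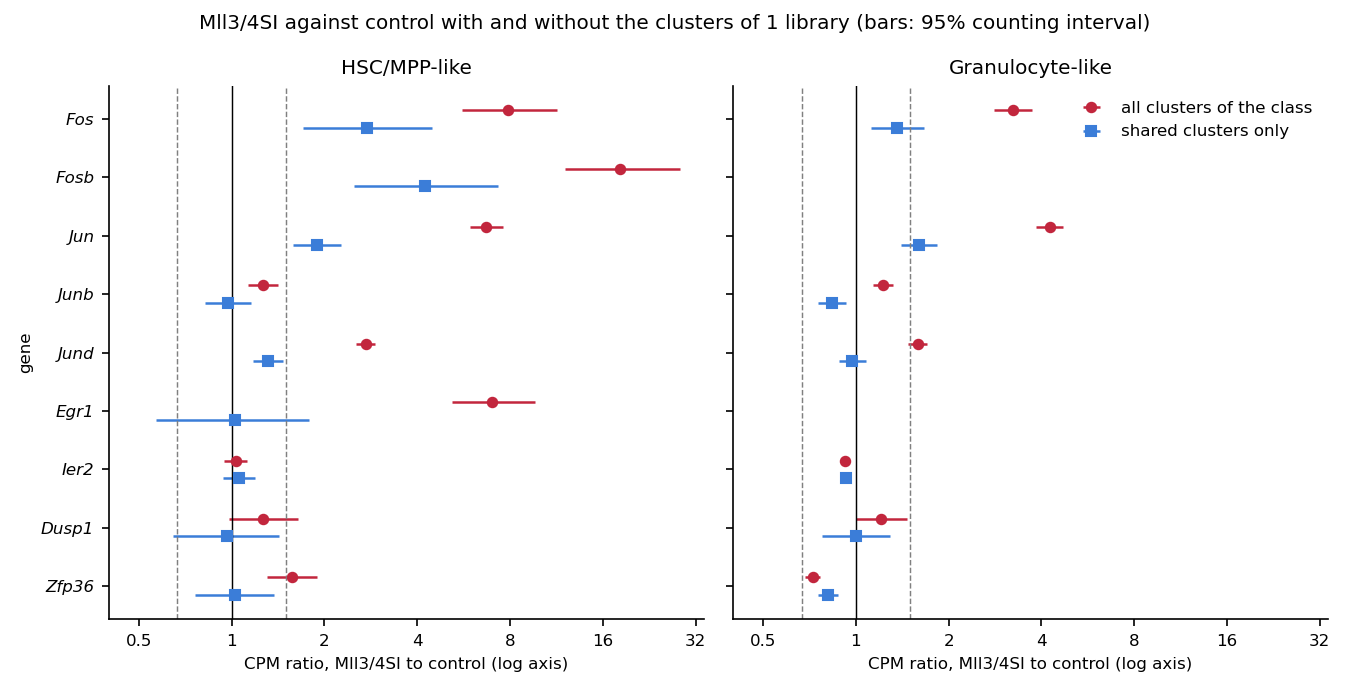
Ratio of Mll3/4SI to control CPM on a log axis for 9 members, in HSC/MPP-like and granulocyte-like cells, over all clusters of the class (red circles) and over clusters shared between libraries (blue squares), with 95% counting intervals and dashed lines at 1.5-fold. In HSC/MPP-like cells Fos, Fosb and Jun lie above 1.5-fold both ways, while Egr1, Jund and Zfp36 do so over all clusters and not over the shared ones.

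Markers of other cell types moved with the members in the HSC/MPP-like class. The basophil/mast markers summed to 255, 169, 496 and 1388 CPM, and 10 of the 12 had a UMI in Mll3/4SI, with Mcpt4 and Cma1 at 0. The megakaryocyte markers summed to 47.1, 40.4, 56.3 and 584 CPM, and 9 of 9 had a UMI there. In the shared clusters of Mll3/4SI the sums were 405 CPM and 68.3 CPM, where Fosb, Fos and Jun were still past 1.5-fold. The HSC/MPP markers summed to 3404, 3733, 3585 and 4559 CPM. Other lists were lower in Mll3/4SI than in control: granulocyte markers summed to 7745, 7805, 15748 and 5030 CPM, monocyte markers to 429, 471, 548 and 260 CPM and eosinophil markers to 36.9, 54.9, 7.16 and 3.17 CPM. The B-lymphoid markers summed to 182, 253, 91.0 and 95.6 CPM and the erythroid markers to 280, 276, 217 and 142 CPM. In the shared clusters of Mll3/4SI these 5 lists summed to 7513, 495, 6.77, 270 and 180 CPM. The part of these markers in the ratios of the whole class was not tested.

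The shared clusters were then taken one at a time. In cluster 6, with Flt3 and Cd34 among its top 10 genes and 171 Mll3/4SI cells, Jun was at 16.1 CPM (13.7 to 18.9) in control and 37.7 CPM (31.9 to 44.4) in Mll3/4SI, from 152 and 147 UMIs. Fosb was at 1.27 CPM (0.658 to 2.22) and 2.82 CPM (1.41 to 5.05), from 12 and 11 UMIs, and Fos at 3.08 CPM (2.06 to 4.42) and 6.42 CPM (4.15 to 9.47), from 29 and 25 UMIs. Only the Jun intervals were apart there. In cluster 15, with Mecom, Meis1 and Hlf among its top 10 genes and 85 Mll3/4SI cells, Fosb was at 2.49 CPM (1.29 to 4.35) and 16.9 CPM (11.3 to 24.3), from 12 and 29 UMIs. Fos was at 1.45 CPM (0.584 to 3.0) and 8.17 CPM (4.47 to 13.7), from 7 and 14 UMIs, and Jun at 29.3 CPM (24.6 to 34.5) and 42.0 CPM (32.9 to 52.9). In this cluster the intervals of Fosb and Fos were apart and those of Jun overlapped. Egr1 was at 1.48 and 2.57 CPM in cluster 6 and at 6.85 and 5.25 CPM in cluster 15. Fosb in cluster 15 was above control in the single-allele libraries too, at 9.95 CPM (6.85 to 14) in Mll3SI and 8.34 CPM (5.81 to 11.6) in Mll4SI. Control was at 2.49 CPM (1.29 to 4.35), and its interval reached neither of the others. In cluster 6 Fosb was at 0.788 CPM (0.289 to 1.72) in Mll3SI and 1.62 CPM (0.806 to 2.89) in Mll4SI. Both of these intervals overlapped that of control.

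Single cells carried these RNAs at low counts. With every cell thinned to 3000 UMIs, a Jun UMI was found in 6.54% (4.83 to 8.63, exact binomial), 3.42% (2.20 to 5.04), 4.34% (2.83 to 6.34) and 28.1% (25.2 to 31.1) of HSC/MPP-like cells. Without thinning the shares were 23.6%, 20.3%, 21.6% and 61.3%. Over the shared clusters of Mll3/4SI the thinned share was 12.6% (8.82 to 17.4). Granulocyte-like cells, the class with the lowest Jun level in the first 3 libraries, had thinned shares of 1.68%, 2.82%, 1.66% and 6.09%, with median depths of 15689, 12515, 11493 and 18678 UMIs against 19820, 15092, 18597.5 and 20461.5 in HSC/MPP-like cells. The HSC/MPP-like share was above the granulocyte-like share in each library, although in Mll3SI its interval held the granulocyte-like value.

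Fos, Fosb, Jun and Egr1 were scored together in the thinned cells. In cluster 16, 58.1% of 673 Mll3/4SI cells had a UMI of none of these 4 genes, 29.0% of 1, 9.96% of 2 and 2.97% of 3 or 4. Cells of cluster 16 with a Jun UMI also had the other genes more often: 14.5% of 228 such cells had an Egr1 UMI against 3.82% of the other 445, and 16.7% against 6.74% had a Fosb UMI. The shares for Fos were 12.3% and 3.37%, and those for Jund 54.8% and 35.1%. Ier2 was at 19.3% and 13.9%, the closest pair of shares. These shares pool cells of both antibody tags, whose Jun and Egr1 levels in cluster 16 differed, as given below. They were not split by tag. In the shared clusters the share of cells with a UMI of none of the 4 genes was 91.6%, 94.0%, 93.4% and 81.0%.

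Depth and mitochondrial RNA varied with the members within libraries. Split into 3 equal groups by UMI count, HSC/MPP-like cells of Mll3/4SI held 881, 556 and 374 CPM of the 10 members from low to high depth, and those of control held 295, 208 and 175 CPM. Jun went from 239 to 96.3 CPM in Mll3/4SI and from 30.5 to 13 CPM in control over the same split. The low-depth cells thus had the highest member levels in both libraries, and Mll3/4SI was above control at each depth. Split by the mitochondrial share, the members summed to 714, 528 and 335 CPM from low to high in Mll3/4SI and to 213, 225 and 190 CPM in control. Over the shared clusters of Mll3/4SI the sums by mitochondrial share were 272, 243 and 273 CPM, with no such order, and those by depth were 382, 257 and 213 CPM. The median mitochondrial share of the class was 3.06%, 3.18%, 2.89% and 2.68% in the 4 libraries, and its part in the ratios was not tested. Granulocyte-like cells of Mll3/4SI went the other way, with Jun at 7.68, 9.84 and 54.9 CPM from low to high mitochondrial share. Fos was at 7.57, 5.57 and 17.3 CPM there. In control granulocyte-like cells Jun was at 6.34, 5.18 and 7.59 CPM and Fos at 2.71, 2.17 and 4.72 CPM. The part of the mitochondrial share in the ratios of this class was not tested either.

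Each library held cells of Hashtag1 and Hashtag2, antibody tags whose meaning the labels do not state, so the 2 sets are a split within 1 library and not replicates. In control HSC/MPP-like cells Jun was at 15.5 CPM in Hashtag1 and 25.6 CPM in Hashtag2, while in Mll3/4SI it was at 46.8 and 199 CPM. Fos was at 2.66 and 2.30 CPM in control and at 5.20 and 29.7 CPM in Mll3/4SI, and Fosb at 1.54 and 1.38 CPM against 10.9 and 43.7 CPM. Both Mll3/4SI sets were above both control sets for these genes, and the Hashtag2 set was several times the Hashtag1 set. Egr1 was at 3.5 and 3.22 CPM in control and at 7.27 and 33.6 CPM in Mll3/4SI. Jund was at 59 and 71.8 CPM in control and 100 and 226 CPM in Mll3/4SI. Ier2 did not separate, at 62.7 and 67.2 CPM against 58.3 and 73.9 CPM, nor did Zfp36, at 11.2 and 12.2 CPM against 10.7 and 23.3 CPM. In all, 5 of 10 members had both Mll3/4SI sets above both control sets, beside 24% of genes, and 0 had both below, beside 38.2%.

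The tag sets differed within clusters as well. In cluster 16 Jun was at 61.0 CPM in 172 Hashtag1 cells and 224 CPM in 495 Hashtag2 cells, and Egr1 was at 11.3 and 39.0 CPM. Among shared-cluster cells of Mll3/4SI Jun was at 30.7 and 57.4 CPM and Fos at 4.42 and 12.3 CPM, from 164 and 85 cells. The same order of tags was seen in basophil/mast-like cells, with Jun at 57.5 and 193 CPM in Mll3/4SI and at 20.6 and 70.9 CPM in control. It was not general: Jun in granulocyte-like cells of Mll3SI was at 12.4 CPM in Hashtag1 and 6.60 CPM in Hashtag2.

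**Figure D3:**
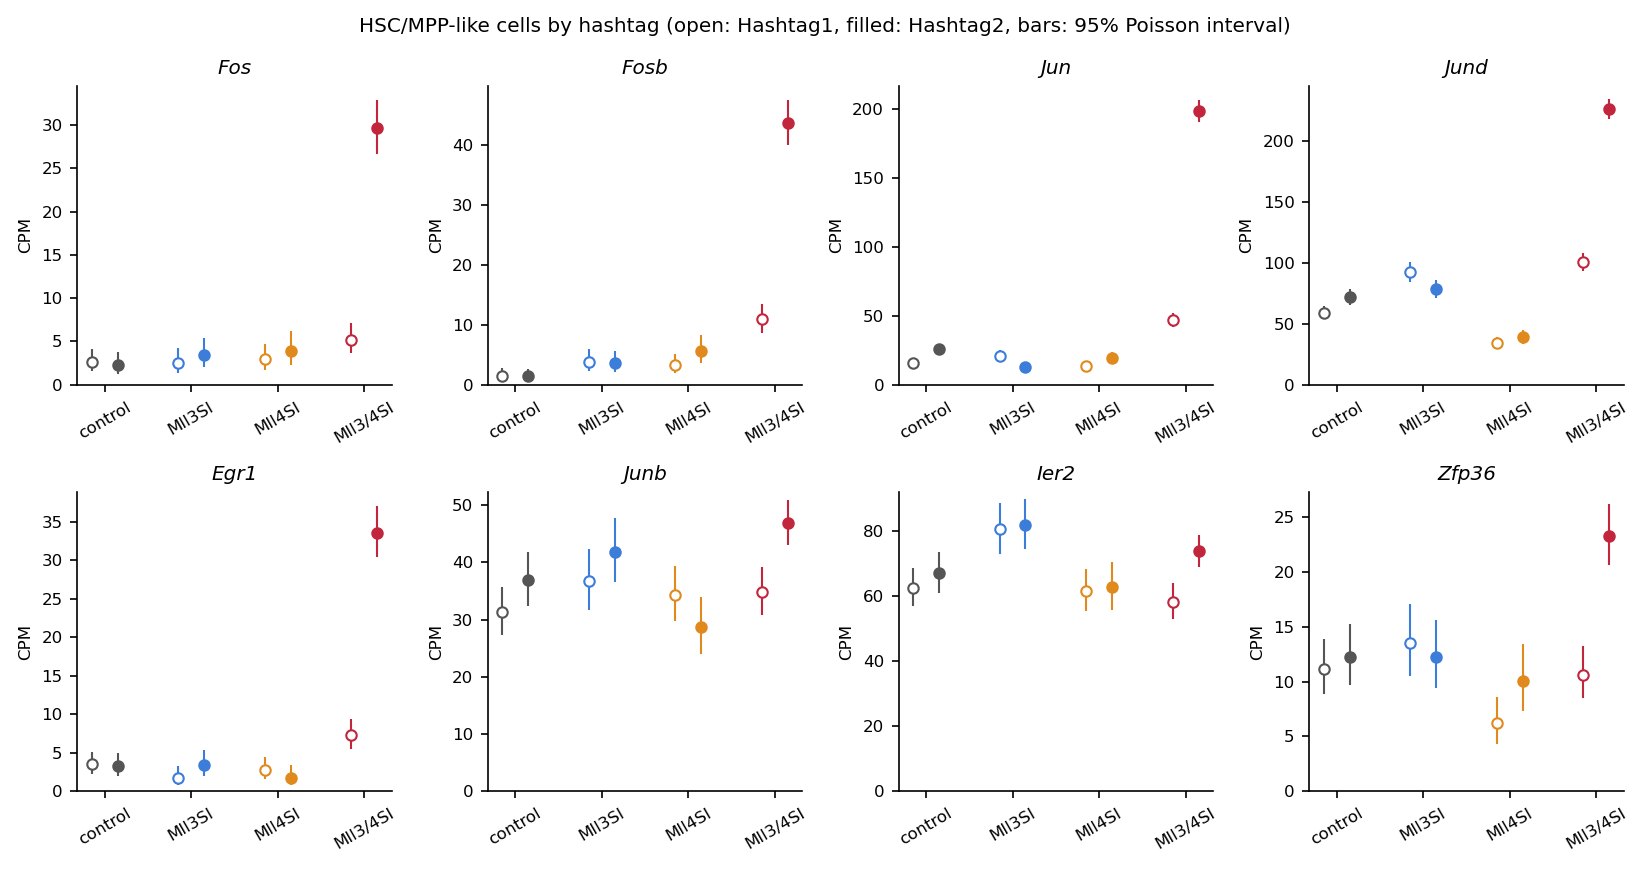
CPM in HSC/MPP-like cells (vertical axis) of 8 members, 1 panel per gene, by library (horizontal axis), with Hashtag1 cells as open and Hashtag2 cells as filled points. In Mll3/4SI the filled point of Jun is at 199 CPM and the open one at 46.8 CPM, and both lie above the control points of 15.5 and 25.6 CPM.

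The single-allele libraries differed less from control in HSC/MPP-like cells. In Mll3SI 1 of 9 members was higher, beside 1.67% of genes, and 0 lower, beside 1.6%: Fosb, at 2.12-fold (1.24 to 3.68). That excess was in cluster 15 and not in cluster 6, where Fosb was at 0.788 CPM against 1.27 CPM in control. Jund was 1.30-fold (1.19 to 1.43) and Ier2 1.25-fold (1.14 to 1.37) the control, both within 1.5-fold with intervals above 1. In Mll4SI 1 of 9 was higher, beside 4% of genes, and 1 lower, beside 4.16%: Fosb was at 2.47-fold (1.48 to 4.24) and Jund at 0.563-fold (0.50 to 0.634). Jund in Mll4SI was at 29.5 CPM in cluster 6, where control had 59.6 CPM, and at 45.5 CPM in cluster 15, where control had 75.0 CPM. Its tag sets were at 34.3 and 38.9 CPM, both under the control sets. Jun at 0.793-fold (0.655 to 0.958) and Zfp36 at 0.731-fold (0.561 to 0.947) were lower in Mll4SI by less than 1.5-fold. The 9 members had median log2 ratios of 0.19 in Mll3SI and -0.25 in Mll4SI.

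In granulocyte-like cells the Mll3/4SI library had more Jun, Fos and Jund than control, and most of that excess was in clusters of that library. Of 7 members that passed the filter 3 were higher, beside 8.82% of 11487 genes, and 0 lower, beside 3.21%; the median log2 ratio was 0.28 for the members and 0.07 for all genes. Median-of-ratios scaling shifted the latter to -0.03, turned 1013 higher and 369 lower genes into 772 and 510, and left Fos and Jun called. Jun was at 6.49, 9.26, 5.58 and 27.6 CPM, 4.26-fold (3.85 to 4.71) in the last. Fos was at 3.37, 4.41, 3.19 and 10.9 CPM, 3.24-fold (2.81 to 3.74). Jund was at 15.5, 22.0, 13.8 and 24.6 CPM, 1.59-fold (1.48 to 1.71). Mll3/4SI was the highest library for all 3. In Hashtag1 cells 1 member (Jun) was past 1.5-fold, and the share of all genes was not counted for these cells. Over the shared clusters, which hold 2101 of the 4988 Mll3/4SI cells, only Jun stayed past 1.5-fold, at 10.6 CPM and 1.61-fold (1.41 to 1.84), so 1 of 7 members was higher beside 2.05% of genes, and 0 lower beside 1.56%. The tag sets of Jun in these clusters, at 5.01 and 20.2 CPM, overlapped those of control, at 4.41 and 7.84 CPM. Fos was then at 4.67 CPM and Jund at 15 CPM, with log2 ratios of 0.36 and -0.04. Cluster 10, an Mpo-rich cluster with 1165 of 1179 cells from Mll3/4SI and Ly6e, Cpa3 and Calr among its top genes, held Jun at 71.6 CPM, Fos at 21.0 CPM and Jund at 48.4 CPM. The basophil/mast markers summed to 104, 102, 63.2 and 298 CPM in the whole granulocyte-like class, and their part in these ratios was not tested.

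The other members of granulocyte-like cells stood closer to control. Fosb and Egr1 were under the filter: Fosb gave 11, 45, 60 and 175 UMIs and Egr1 gave 6, 7, 11 and 110 UMIs, so both were rare and both were highest in Mll3/4SI. Zfp36, whose protein shortens the life of inflammatory messenger RNAs, was at 33.0, 29.8, 46.7 and 23.9 CPM, highest in Mll4SI at 1.41-fold (1.34 to 1.49) and lowest in Mll3/4SI. With median-of-ratios scaling, which moved the median log2 ratio of all genes in Mll4SI granulocyte-like cells from -0.11 to 0.01 and the split of higher and lower genes from 322 and 1083 to 473 and 700, Zfp36 passed 1.5-fold there. Junb was at 15.7, 20.8, 11 and 19.3 CPM and Dusp1 at 2.48, 2.85, 1.59 and 3.0 CPM, each lowest in Mll4SI. In Mll3SI and Mll4SI 0 of 7 members were past 1.5-fold in either direction, beside 1.37% higher and 1.24% lower in Mll3SI and 2.8% higher and 9.43% lower in Mll4SI. In Mll3SI Jun, Jund and Junb came closest, at 1.43-fold, 1.42-fold and 1.32-fold. In Mll4SI, with 79.2% of its granulocyte-like cells in clusters of its own, Fos was at 5.96 CPM over the shared clusters, 1.74-fold (1.40 to 2.16) the control. It was the 1 member higher there, beside 13.4% of genes, and 0 were lower, beside 6.23%.

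Basophil/mast-like cells, all in the shared cluster 18, had more of most members in Mll3/4SI, from 154 control cells and 135 Mll3/4SI cells. Of 9 members 8 were higher, beside 8.74% of 12532 genes, and 0 lower, beside 13.3%; the median log2 ratio was 1.07 for the members and -0.09 for all genes. Jun was at 44.7 CPM in control and 145 CPM in Mll3/4SI, 3.25-fold (2.63 to 4.05). Fos was at 6.21 and 23.8 CPM and Fosb at 7.04 and 32.1 CPM, ratios of 3.83-fold (2.18 to 7.20) and 4.56-fold (2.70 to 8.14). Jund was at 76.6 and 153 CPM, Junb at 20.3 and 36.4 CPM and Egr1 at 5.8 and 13.2 CPM. Dusp1, at 1.95-fold (0.864 to 4.82), and Zfp36, from 2 and 19 UMIs, were past 1.5-fold on few counts. Ier2 was the member within 1.5-fold, at 55.1 and 75.1 CPM. The tag sets overlapped between the libraries for Jun, at 20.6 and 70.9 CPM in control and 57.5 and 193 CPM in Mll3/4SI, and for Fos, at 3.17 and 10.0 CPM against 2.97 and 34.8 CPM. They also overlapped for Fosb, Jund, Junb and Egr1, and were apart for Dusp1 and Zfp36. Markers of other cells differed in the same class: from control to Mll3/4SI the granulocyte markers summed to 8052 and 12392 CPM, the monocyte markers to 153 and 496 CPM and the eosinophil markers to 1918 and 688 CPM. The basophil/mast markers themselves summed to 5230 and 7249 CPM. In Mll3/4SI 17 of 18 granulocyte, 12 of 12 monocyte and 8 of 8 eosinophil markers had a UMI, and their part in the ratios was not tested. In Mll3SI 3 of 9 were higher, beside 7.77% of genes (Fosb, Junb and Zfp36), and 0 lower, beside 9.84%. In Mll4SI 4 were higher, beside 11.5% (Junb, Egr1, Dusp1 and Zfp36), and 1 lower, beside 8.69% (Fosb).

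Erythroid-like cells, all in the shared cluster 9, had 3 of 9 members higher in Mll3/4SI, beside 4.75% of 12348 genes, and 0 lower, beside 6.32%. Jun was at 36.0 CPM in control and 74.3 CPM in Mll3/4SI, 2.06-fold (1.73 to 2.46), Fosb at 3.98 and 11.6 CPM, 2.93-fold (1.77 to 4.85), and Fos at 1.64 and 5.82 CPM, 3.55-fold (1.65 to 7.79). The tag sets of Jun and Fos were above both control sets. Those of Fosb, at 1.88 and 24.5 CPM in Mll3/4SI, lay on both sides of the control sets at 3.52 and 5.07 CPM. Below both control sets were those of Ier2, at 33.2 and 37.0 CPM against 39.6 and 40.5 CPM. So were those of Zfp36, narrowly, at 3.13 and 3.1665 CPM against 3.1674 and 5.09 CPM. The share of all genes with tag sets apart was not counted for this or the basophil/mast-like class. Fosb was also higher in Mll3SI erythroid-like cells, at 10.1 CPM and 2.55-fold (1.66 to 3.97), where 2 of 9 members were higher beside 3.69% of genes, and 0 lower beside 2.96%. In Mll4SI 1 was higher (Zfp36), beside 7.36%, and 0 lower, beside 4.27%. Monocyte-like cells had 1 of 8 members higher in Mll3/4SI, beside 2.63% of 11843 genes, and 0 lower, beside 1.94%. This was Fosb, at 1.23 and 3.39 CPM, with tag sets of 0.520 and 2.01 CPM in control and 0.520 and 8.99 CPM in Mll3/4SI. Jun was not past 1.5-fold there. In Mll3SI monocyte-like cells Fos was at 16.9 CPM against 10.4 CPM, 1.62-fold (1.37 to 1.94), and Fosb was also higher, together 2 of 8 members beside 0.827% of genes, with 0 lower beside 0.979%. In Mll4SI Fosb was the 1 member higher, beside 3.16%, at 2.45-fold (1.51 to 4.09), and 0 were lower, beside 2.38%.

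The remaining classes were small, so their counts of members rest on few cells. B-lymphoid-like cells numbered 73, 190, 42 and 37, and 9 members passed the filter. In Mll3SI 1 was higher (Fos), beside 9.28% of 12189 genes, and 2 lower (Jun and Egr1), beside 10.3%. In Mll4SI 1 was higher (Fos), beside 14.4%, and 5 lower (Fosb, Jun, Junb, Jund and Dusp1), beside 17.3%. In Mll3/4SI 3 were higher (Fos, Dusp1 and Zfp36), beside 13.7%, and 3 lower (Fosb, Egr1 and Ier2), beside 18.8%. Jun was thus not higher in this class in any library with an SI allele: it was at 61.2, 35.1, 25.7 and 43.5 CPM.

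Dendritic-like cells numbered 49, 34, 24 and 25, and all 10 members passed the filter, Atf3 on no more than 2 UMIs per library. In Mll3SI 1 was higher (Fos), beside 22.9% of 12081 genes, and 1 lower (Egr1), beside 21.1%. In Mll4SI 0 were higher, beside 26.6%, and 7 lower, beside 23%, with a median log2 ratio of -1.49. Jund there was at 65.2 CPM against 311 CPM in control, 0.209-fold (0.121 to 0.342). In Mll3/4SI 4 were higher (Fos, Junb, Egr1 and Zfp36), beside 25.8%, and 1 lower (Dusp1), beside 23.4%. T/NK-like cells numbered 26, 12, 22 and 47. Of 10 members, 3 were higher and 2 lower in Mll3SI, beside 23.2% and 38.7% of 12316 genes, and 1 was higher and 2 lower in Mll4SI, beside 22.5% and 34.1%. In Mll3/4SI 3 were higher and 3 lower, beside 23.6% and 28%.

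Clusters with at least 50 cells in both libraries were compared one by one, without the filter of 1 CPM. They are parts of the same libraries and not replicates. In Mll3/4SI Jun was above control in 15 of 15 clusters and past 1.5-fold in 8, with log2 ratios from 0.02 to 1.68 and a median of 0.62. Fos was above in 14 and past 1.5-fold in 8, and Fosb was above in 13 and past it in 9, but lower past 1.5-fold in 1, at a log2 ratio of -1.77. That value was in cluster 20, which is unnamed and has a median of 1668.5 UMIs per cell, so it rests on very low counts. Jund was above in 13 but past 1.5-fold in 2, and lower past it in 1, at -0.79, and Egr1 was above in 10 and past it in 3. Ier2 was above in 8 of 15 and past 1.5-fold in 0. In Mll3SI Ier2 was above control in 16 of 16 clusters by small amounts, log2 0.03 to 0.35, and Jund in 15 of 16 with a median of 0.35. In Mll4SI Jund was above control in 2 of 14 clusters, and lower past 1.5-fold in 5.

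**Figure D4:**
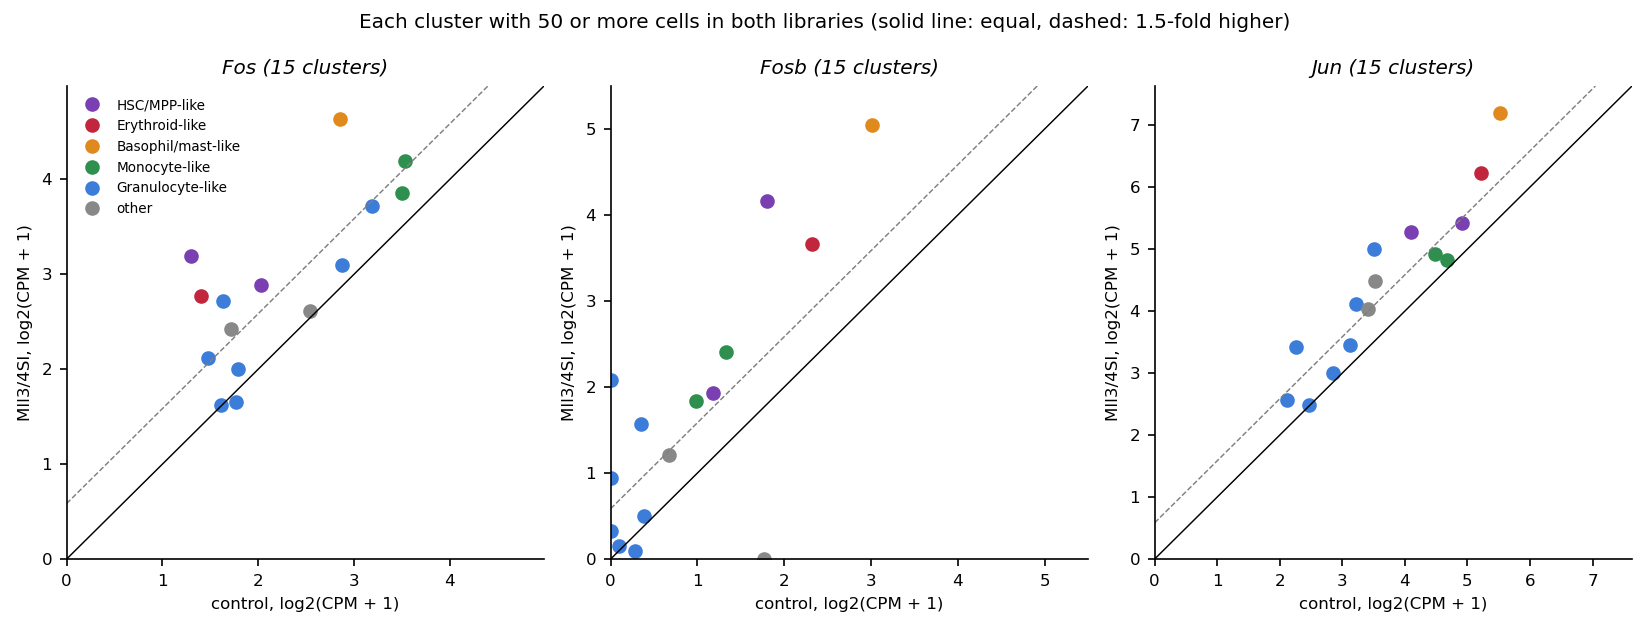
Log2 of CPM plus 1 in control (horizontal axis) against Mll3/4SI (vertical axis) for Fos, Fosb and Jun, 1 point per cluster with at least 50 cells in both libraries (15 clusters), coloured by cell class. All 15 Jun points lie above the solid line of equal levels, and 8 lie above the dashed line of 1.5-fold.

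Other genes of the pathway were mostly within 1.5-fold of control in HSC/MPP-like cells of Mll3/4SI, where 7.37% of all genes were higher and 9.08% lower. Of 11 tested partners of AP-1 and related leucine zipper genes, 0 were higher and 2 lower: Fosl2, at 8.0 CPM in control and 3.67 CPM in Mll3/4SI, and Cebpb, a myeloid transcription factor, at 100 and 27.8 CPM. Of 18 other immediate early genes 5 were higher and 2 lower, with a median log2 ratio of 0.14. Btg2, an antiproliferative gene, was at 21.6 and 66.9 CPM and Klf6, a zinc finger factor, at 11.6 and 25.1 CPM. Gadd45b, a stress response gene, was at 17.2 and 10.9 CPM. Of 14 phosphatase and RNA decay genes 0 were higher and 4 lower, among them Dusp6, a phosphatase of ERK kinases, at 23.5 and 13.7 CPM. Of 25 MAP kinases and upstream transcription factors 1 was higher, Crem at 8.78 and 17.5 CPM, and 3 were lower, among them Map3k1 at 57.9 and 30.1 CPM and Map3k5 at 97.3 and 55.7 CPM.

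Heat shock genes were counted as a list of their own. In HSC/MPP-like cells of Mll3/4SI 1 of 14 was higher (Dnajb4) and 1 lower (Hspa1b), with a median log2 ratio of -0.19, and their sum was 6698, 6573, 6104 and 5779 CPM. Over the shared clusters the Mll3/4SI sum was 6436 CPM, with 0 higher and 2 lower. In the same clusters 0 of 19 other immediate early genes were higher and 1 lower, Nr4a2 at 11.5 and 7.13 CPM. In granulocyte-like cells of Mll4SI 8 of 14 heat shock genes were lower and 1 higher, with a median log2 ratio of -0.69, beside 9.43% of all genes lower and 2.8% higher. Among them Hspe1 was at 138 and 60.2 CPM. Over the shared clusters of that library 3 were higher and 2 lower, with a median of 0.33, beside 13.4% and 6.23% of all genes. In the granulocyte-like clusters drawn mostly from 1 library, 260 control cells and 2887 Mll3/4SI cells were compared. Of the control cells 250 were in cluster 1, with Mmp8 and Mmp9 among its top genes. Of the Mll3/4SI cells 1165 were in cluster 10, 1038 in cluster 13 and 404 in cluster 19. The counts for these cells thus compare different clusters as well as libraries. Among these cells 12 of 13 heat shock genes were higher in Mll3/4SI and 0 lower, with a median log2 ratio of 1.02 and sums of 1065 and 3150 CPM. In the same cells 5 of 8 members were higher (Fos, Fosb, Jun, Junb and Jund) and 1 lower (Zfp36), beside 47.5% of all genes higher and 15.1% lower. The part of the heat shock genes in the members' ratios was not tested.

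**Figure D5:**
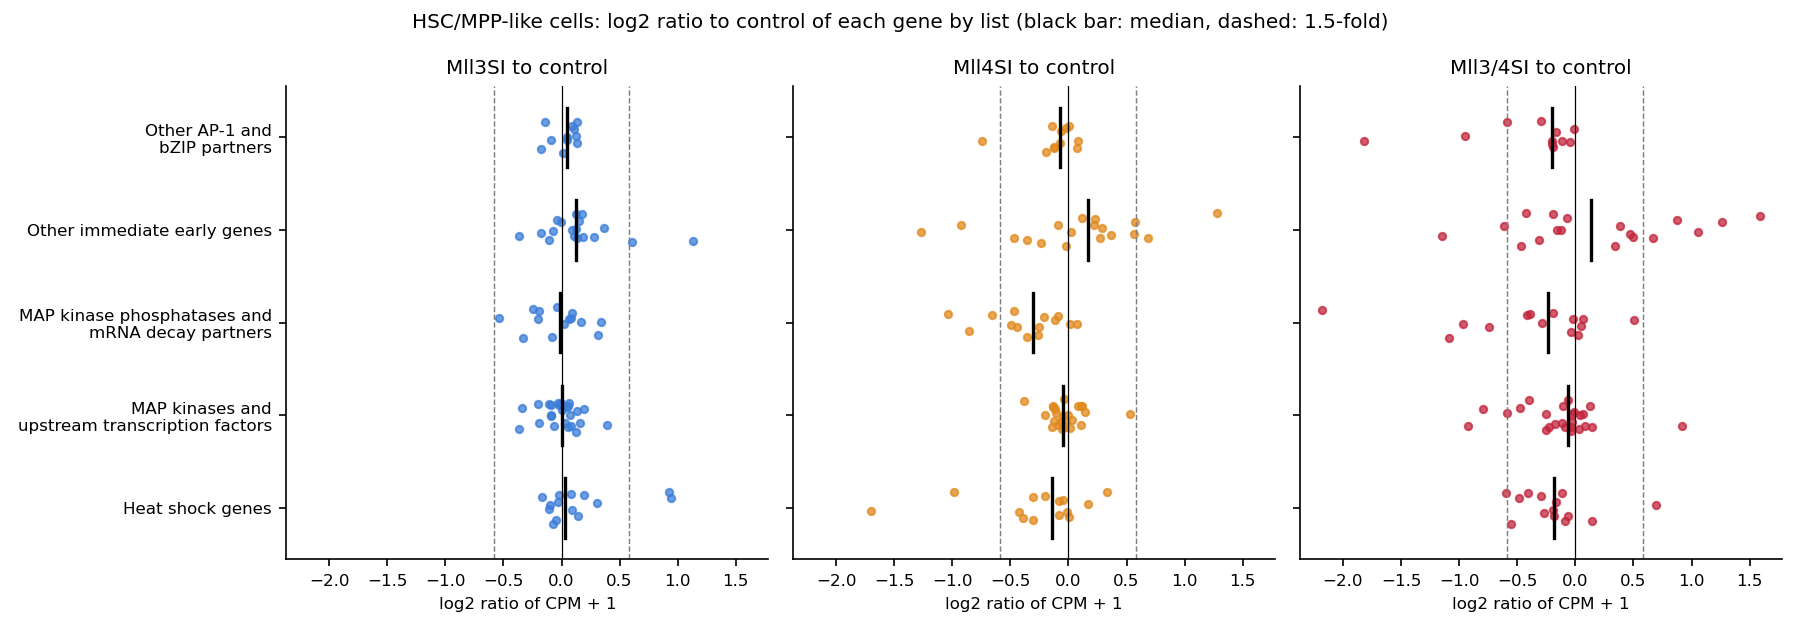
Log2 ratio of CPM plus 1 to control in HSC/MPP-like cells for each tested gene of 5 related lists (points) in the 3 libraries with an SI allele, with the list median as a black bar and dashed lines at 1.5-fold. The list medians in Mll3/4SI lie near 0, between -0.24 and 0.14.

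Across 22 sums of at least 50 cells, each 1 library and 1 class from 6 classes, members were compared by their profiles. The sums share libraries, classes and depth, so the correlations of log2 CPM plus 1 describe them only. Fosb followed Jun (r = 0.89) and Jund (r = 0.84), and Egr1 followed Jund (r = 0.85) and Jun (r = 0.81). Dusp1 followed Jund as well (r = 0.88). Genes outside the members came closer to Egr1 (Sox5, r = 0.96), Jund (Ptprcap, r = 0.94) and Dusp1 (Pde4b, r = 0.91). For Fosb, Jun was the closest gene. Ier2 ran opposite to Egr1 (r = -0.79) and Jund (r = -0.76) and with Zfp36 (r = 0.59). Fos was close to neither, with r = 0.43 to Jun and -0.01 to Egr1. Of 8628 genes the most like the summed members were the histone genes Hist1h3d (r = 0.79), Hist1h2ac (r = 0.76) and H3f3b (r = 0.70), followed by 1700097N02Rik (r = 0.68) and Ifi27l2a (r = 0.67).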

How the data were processed

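The authors deposited counts of unique molecules per gene and cell, 1 matrix per library. Per the file headers these come from Cell Ranger 7.1.0, and per the submitters' processing notes from mm10. Barcodes with at least 500 genes, at least 1000 UMIs and at most 10% mitochondrial UMIs were kept, and called doublets, from 409 to 1001 per library, were removed. Cells were clustered (scanpy 1.11.5, Leiden resolution 1, 30 components, 15 neighbours) on 2000 variable genes without the members, and clusters were named from at least 3 markers. UMIs were summed per library and class and scaled to CPM, and 1 CPM was added before log2. Genes of the related lists are named by rule: those of highest and lowest log2 ratio with a mean of at least 10 CPM, and others where a count of 5 or fewer rests on them. With 1 library per group no test was run, and intervals cover counting error only. The members and lists were chosen with earlier results of these data known. Alternatives were another scaling, filter, fold, resolution, added constant, thinning and each hashtag alone.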

Additional observations from a re-analysis of the deposited data

Results flagged for a closer look

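Fosb differed in direction between cell classes in the Mll4SI library. Its log2 ratio to control was 0.94 in HSC/MPP-like cells and -1.20 in basophil/mast-like cells, a difference of 2.14 on the log2 scale. Against monocyte-like cells, where the log2 ratio was 0.85, the difference was 2.05. The basophil/mast-like value rests on 17 UMIs in control and 4 in Mll4SI, a ratio of 0.355-fold (0.087 to 1.09), and the difference between classes was not tested because each group is 1 library.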

How the results depend on the processing

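No paired analysis was possible because each group is 1 library. Taking shared clusters alone, and counting an unnamed cluster as HSC/MPP-like, were chosen after the data were seen. Counts of members past 1.5-fold that changed by over 1.5 times, or to or from 0, are given, and the cause was not tested. The share of all genes called was not counted for each hashtag alone, nor for another filter, fold, resolution, added constant or thinning. Over all kept cells, the 1 member higher in Mll3SI became 0 with 10 CPM added, 2 with 0.1 CPM added, 0 at 2-fold, 0 for members of at least 10 CPM, 3 in Hashtag1 cells and 0 in Hashtag2 cells. The 0 higher in Mll4SI became 1 (Zfp36) with median-of-ratios scaling, the mean over cells, thinning to 3000 UMIs or Hashtag1 alone, and 1 (Fosb) in shared clusters. The 1 lower there (Jund) became 0 with 10 CPM added, at 2-fold or in shared clusters, 2 with 0.1 CPM added, the mean over cells or Hashtag2 alone, and 3 when thinned. The 5 higher in Mll3/4SI became 3 with 10 CPM added or in shared clusters, 2 at the 10 CPM minimum and 1 in Hashtag1 cells.

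In HSC/MPP-like cells the 1 higher in Mll3SI became 0 with 10 CPM added, at 2-fold or at the 10 CPM minimum, and 2 in Hashtag1 cells, while the 0 lower became 1 when thinned or in either hashtag alone. The 1 higher in Mll4SI became 0 with 10 CPM added, at 2-fold or at the 10 CPM minimum. The 1 lower there became 0 at 2-fold, 3 with the mean over cells, and 2 when thinned or in either hashtag alone. The 6 higher in Mll3/4SI became 3 at Leiden resolution 0.5, at the 10 CPM minimum or in shared clusters, and by a smaller step 5 with 10 CPM added, at 2-fold, thinned or in Hashtag1 cells and 7 in Hashtag2 cells. The thinned shares of cells with a Jun UMI, 6.54%, 3.42%, 4.34% and 28.1%, were 23.6%, 20.3%, 21.6% and 61.3% unthinned.

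In granulocyte-like cells the 0 higher in Mll3SI became 1 when thinned and 4 in Hashtag1 cells. The 0 higher in Mll4SI became 1 (Zfp36) with median-of-ratios scaling, the mean over cells, thinning or Hashtag1 alone, and 1 (Fos) in shared clusters, and the 0 lower became 1 with 0.1 CPM added, when thinned or in Hashtag2 cells. The 3 higher in Mll3/4SI became 1 at resolution 0.5, in Hashtag1 cells or in shared clusters. Of single log2 ratios past 1.5-fold in the main setting, 5 changed sign under an alternative, all in Mll3/4SI. They were Egr1 over all cells in Hashtag1 (-0.020), Egr1 in HSC/MPP-like cells at resolution 0.5 (-0.025) and Zfp36 there in Hashtag1 (-0.065). The others were Jund in granulocyte-like cells at resolution 0.5 (-0.043) and in shared clusters (-0.036). Sign changes of ratios within 1.5-fold were not counted. Of the other ratios of single members under an alternative, 776 differed from the reported value by no more than its counting error and 167 by more.

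Low counts limit Atf3 everywhere, and Fosb and Egr1 in granulocyte-like cells. With 1 library per group, the spread between animals is unknown, and the alleles, sex-linked transcripts and library handling cannot be told apart.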
